A study of Homo sapiens with 3 samples.

Results

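The SLC25 genes encode the mitochondrial carriers, a family of membrane proteins that move metabolites across the inner membrane of mitochondria. Members were taken as all probes whose gene symbol in the array's annotation begins with SLC25A and a number, and each was read on all 3 arrays. There were 70 such probes for 48 genes, of 20045 genes in all. Of the 48, 45 are protein-coding carriers, and the other 3 are the antisense transcript SLC25A21-AS1 and the pseudogenes SLC25A3P1 and SLC25A51P4.

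RNA came from MDA-MB-231 cells, an established triple-negative human breast cancer line of mesenchymal type, and was read on Illumina bead arrays. The 3 groups held 1 array each: 1 for transfection with a vector that expresses FBP1, 1 for the vector with no insert (the empty vector) and 1 for a control called wt, for which the labels give no transfection. All 3 cultures grew in DMEM with serum and antibiotics. They are called FBP1 cells, empty vector cells and wt cells below. The labels do not say whether the transfected cells were pools or single clones, nor how long after transfection RNA was taken. Every difference is one between single arrays, none has a replicate check or a p-value, and the number of arrays limits the precision throughout. FBP1 (fructose-1,6-bisphosphatase 1) is a gluconeogenic enzyme that reverses the phosphofructokinase step of glycolysis, and the series set its overexpression against the controls.

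Carriers of this family share a fold of 3 repeated modules and most exchange one substrate for another. They bring phosphate and ADP into the matrix and take ATP out, pass malate, citrate, 2-oxoglutarate and amino acids between matrix and cytosol, and supply the matrix with cofactors such as NAD and coenzyme A. They therefore join glycolysis and fatty acid synthesis in the cytosol to respiration in the matrix. Carrier proteins are made in the cytosol and imported by the TOM complex of the outer membrane, the small TIM chaperones and the TIM22 complex of the inner membrane.

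FBP1 gave signals of 1063.5 intensity units in FBP1 cells, 678.6 in empty vector cells and 530.8 in wt cells, and was 1.79-fold and 2.44-fold higher in FBP1 cells than in empty vector cells and wt cells. Between 41.8% and 42.0% of probes were detected on each array, at a detection p-value under 0.01. Of 7 genes listed as typical of the line, VIM, CD44, AXL, CAV1, ANXA1 and MSN were detected on all 3 arrays and SPARC on none. Of 5 genes listed as absent or low, ESR1, PGR and GATA3 were detected on no array and EPCAM on all 3 arrays. EPCAM gave signals of 469.5 in FBP1 cells, 399.6 in empty vector cells and 341.6 in wt cells. It was 1.33-fold and 1.67-fold higher in FBP1 cells than in empty vector cells and wt cells. CDH1 was detected in FBP1 cells alone, with a signal of 158.3 against 89.7 in empty vector cells and 79.8 in wt cells. CDKN2A and MTAP, neighbouring genes that are deleted in MDA-MB-231, were also detected in FBP1 cells alone. CDKN2A gave signals of 120.6 in FBP1 cells, 88.9 in empty vector cells and 89.0 in wt cells, and MTAP gave 107.5, 97.7 and 85.1 in the same order. Against empty vector cells, CDH1 was at least 3.59-fold, CDKN2A at least 2.04-fold and MTAP at least 1.37-fold higher. CDH1 was listed only as absent or low, whereas CDKN2A and MTAP are deleted in the line. In CDKN2A and MTAP the array of FBP1 cells thus went against its label. The part of all 3 genes in the differences below was not tested. The difference between the controls (empty vector minus wt), which does not use that array, is printed for members at least 1.5-fold apart in any comparison; for others it is, up to rounding, their difference from wt cells less that from empty vector cells.

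Most carriers differed little between the arrays. Levels are log2 intensities after background correction and quantile normalisation, differences are differences of these levels, and a gene was read from its brightest probe and compared where it was detected on at least 1 of the arrays compared. Of the 48 members, 29 were detected on all 3 arrays, 7 on 1 or 2 arrays and 12 on none. The detected members numbered 34 in FBP1 cells and 32 on each control.

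Against empty vector cells, SLC25A21, SLC25A24 and SLC25A51 were at least 1.5-fold higher in FBP1 cells and no member was that much lower, of 35 compared. Over all genes 6.76% were at least 1.5-fold higher and 6.05% at least 1.5-fold lower, and these 3 members make 8.57% of the 35. All 3 were also at least 2-fold higher, which 1.31% of all genes were, and 0.975% were that much lower. The median difference of the members was 0.06 and their middle 50% lay between -0.12 and 0.22, beside a median of -0.01 and a range of -0.24 to 0.24 for the middle 50% of 12413 genes.

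Against wt cells, SLC25A21, SLC25A37, SLC25A45 and SLC25A51 were at least 1.5-fold higher in FBP1 cells and none of 36 members was that much lower, beside 8.96% and 8.00% of all genes. SLC25A21 and SLC25A45 passed 2-fold, beside 1.96% of all genes higher by that much and 1.46% lower. The median was 0.00 for the members and 0.00 for all 12404 genes. This comparison shares the array of FBP1 cells with the previous one. SLC25A21 and SLC25A51 were at least 1.5-fold above both controls and no member was below both, beside 4.02% of 12895 genes above both and 3.06% below both.

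Between the controls, SLC25A45 was at least 1.5-fold higher and SLC25A24 at least 1.5-fold lower in empty vector cells than in wt cells, of 34 members compared, beside 3.99% of all genes higher and 3.35% lower. Both also passed 2-fold, beside 0.502% and 0.559% of all genes. The members had a median of -0.09, with 20 of 34 below 0, and all genes had a median of 0.01, with 48.9% below 0. With median scaling of the arrays in place of quantile normalisation the members' median was 0.03 and that of all genes 0.08. That scaling also put the median of all genes at 0.21 against empty vector cells and 0.29 against wt cells, where the members' medians were 0.29 and 0.31. Counts of members past either size rest on at most 4 genes in each comparison, so the values below are those of single carriers.

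**Figure D1:**
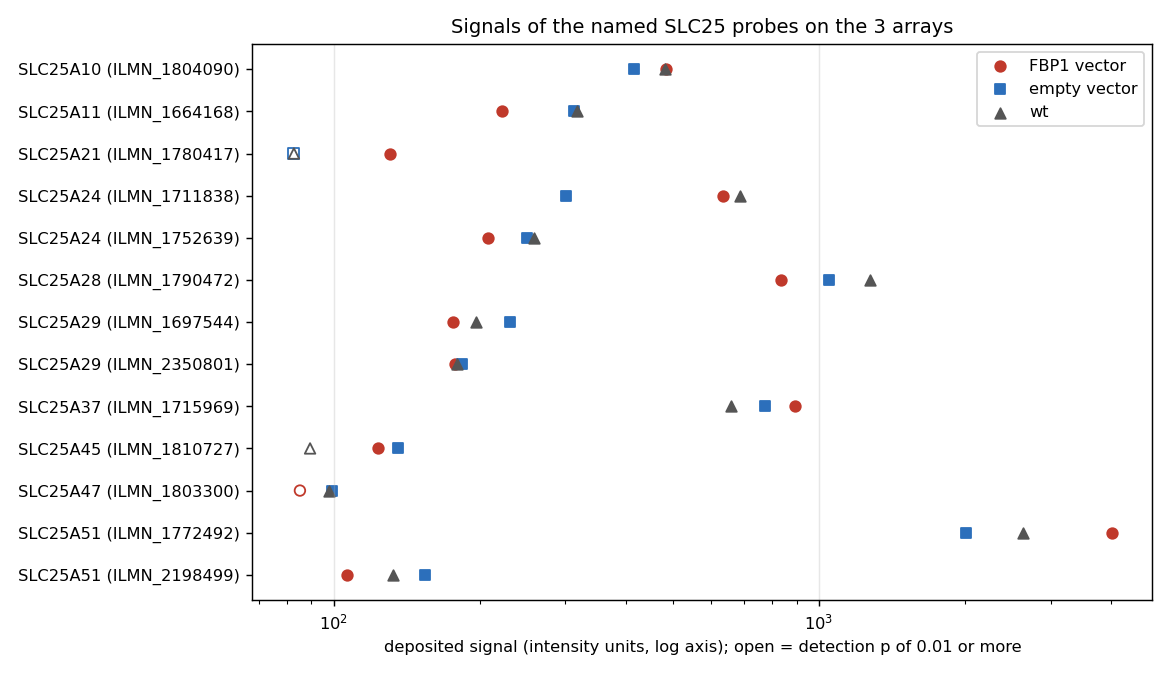
Deposited signal of each named SLC25 probe (x axis, intensity units on a log scale) on the arrays of FBP1 cells (circles), empty vector cells (squares) and wt cells (triangles), with open symbols where the probe was not detected. The bright SLC25A51 probe was highest in FBP1 cells at 4004.8 and the dim one was lowest there at 106.7, and SLC25A21 was detected in FBP1 cells alone.

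SLC25A51 carries NAD into mitochondria. Its brighter probe, ILMN_1772492, gave signals of 4004.8 in FBP1 cells, 2011.5 in empty vector cells and 2637.2 in wt cells, or levels of 12.03, 10.90 and 11.26. By this probe FBP1 cells were 2.18-fold above empty vector cells and 1.70-fold above wt cells, and empty vector cells were 1.29-fold below wt cells. Of all genes, 95 of 12413 genes lay further above empty vector cells and 565 of 12404 further above wt cells. Its dimmer probe, ILMN_2198499, put the arrays in the opposite order, with signals of 106.7, 154.4 and 132.7 in FBP1, empty vector and wt cells. By that probe SLC25A51 was 2.02-fold below empty vector cells and 1.53-fold below wt cells, and the mean over both probes was 0.06 and 0.07 (log2) above the controls. The direction of SLC25A51 is thus unsettled. The gene has close copies, among them SLC25A52 and several pseudogenes, so its probes may pick up RNA of these copies; which copy each reads was not tested. The probe of SLC25A52 was detected on no array. The pseudogene SLC25A51P4, detected in FBP1 and wt cells, had signals of 100.3 in FBP1 cells, 96.4 in empty vector cells and 98.2 in wt cells.

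SLC25A21 exchanges 2-oxoadipate, a product of lysine breakdown, for 2-oxoglutarate. It was detected in FBP1 cells alone, with signals of 130.5 there, 82.6 in empty vector cells and 82.8 in wt cells. A fold against an array that did not detect the gene is marked as at least that size. It is set against the gene's own level there or, if higher, the dimmest level at which that array detected a probe. That dimmest level was 4.68 in FBP1 cells, 4.69 in wt cells and 4.70 in empty vector cells. Such a fold is a bound under this normalisation only, not a guaranteed minimum. SLC25A21 was at least 2.44-fold above empty vector cells and at least 2.46-fold above wt cells, with a measured difference of 1.45 from each control and of -0.01 between the controls. These sizes depend on the background correction: the differences were 0.72 and 0.71 without it, 0.77 and 0.77 with a neqc offset of 50 and 0.63 and 0.63 with the authors' processed values, all still past 1.5-fold. The bounds therefore hold only for the levels used here, with a neqc offset of 16. It has 1 probe, so no second reading exists. The antisense transcript SLC25A21-AS1, read by 2 probes, was detected on no array. CDH1, CDKN2A and MTAP, given above, were likewise detected in FBP1 cells alone, and what part the source of their signal had in the SLC25A21 difference was not tested.

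SLC25A24 exchanges ATP-Mg for phosphate under the control of calcium and so sets the adenine nucleotide pool of the matrix. Here empty vector cells stood apart. The brighter probe, ILMN_1711838, gave 634.7 in FBP1 cells, 301.4 in empty vector cells and 687.8 in wt cells, so that FBP1 cells were 2.70-fold above empty vector cells but 1.04-fold above wt cells, and empty vector cells were 2.61-fold below wt cells. Of all genes, 26 of 12344 genes lay further below wt cells in the comparison of the controls. The second probe, ILMN_1752639, did not show this, with signals of 207.9, 249.7 and 259.0 in FBP1, empty vector and wt cells and differences of -0.24 from empty vector cells and -0.28 from wt cells. The mean over both probes put FBP1 cells at 0.60 from empty vector cells and the controls at -0.71. The last SLC25A24 probe was detected on no array.

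SLC25A45, a carrier that was long without a known substrate, separated wt cells from the others. Its brighter probe gave 123.5 in FBP1 cells and 135.5 in empty vector cells, and was not detected in wt cells at 89.4. It was at least 2.16-fold and at least 2.37-fold above wt cells in FBP1 and empty vector cells, while FBP1 cells differed from empty vector cells by -0.13. Neither difference from wt cells reached 1.5-fold without background correction, at 0.52 and 0.58, or with the authors' processed values, at 0.43 and 0.48. The second SLC25A45 probe was detected on no array.

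The sequences before the start of the 3 genes farthest above empty vector cells are shown because these are the members more than 2-fold higher in that comparison. They are the 250 bases before the RefSeq start, 5′ to 3′ on the gene's strand, from build GRCh38.p14, with motif matches in capitals.
SLC25A51 promoter, chr9:37904128-37904377, minus strand: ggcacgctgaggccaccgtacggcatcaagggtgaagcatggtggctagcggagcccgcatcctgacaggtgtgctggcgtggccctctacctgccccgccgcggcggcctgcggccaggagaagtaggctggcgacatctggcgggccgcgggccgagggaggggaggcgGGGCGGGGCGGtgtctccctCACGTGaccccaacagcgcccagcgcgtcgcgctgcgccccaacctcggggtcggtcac
SLC25A21 promoter, chr14:37172607-37172856, minus strand: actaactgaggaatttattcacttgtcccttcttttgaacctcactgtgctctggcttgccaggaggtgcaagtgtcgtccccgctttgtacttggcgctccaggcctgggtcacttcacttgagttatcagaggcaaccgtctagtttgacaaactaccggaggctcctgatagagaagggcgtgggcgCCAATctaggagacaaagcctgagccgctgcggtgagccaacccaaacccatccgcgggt
SLC25A24 promoter, chr1:108200344-108200593, minus strand: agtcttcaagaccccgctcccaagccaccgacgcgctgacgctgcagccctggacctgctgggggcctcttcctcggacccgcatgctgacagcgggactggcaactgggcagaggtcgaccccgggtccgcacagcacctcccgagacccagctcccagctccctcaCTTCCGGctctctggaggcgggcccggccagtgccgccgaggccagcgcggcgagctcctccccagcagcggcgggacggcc

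The motifs searched, on both strands, were those of GABP (CCGGAAG), the E-box (CACGTG), the GC box (GGGCGG, which can overlap itself), the CCAAT box (CCAAT) and the TATA box (TATAAA). GABP is a known regulator of many nuclear genes for mitochondria, MYC and USF bind the E-box, SP1 the GC box and NF-Y the CCAAT box. SLC25A51 held an E-box 59 bases before its start and overlapping GC boxes at 79 and 74 bases, SLC25A21 a CCAAT box at 60 bases and SLC25A24 a GABP motif on the opposite strand at 82 bases, so that these 3 promoters had no motif in common. Promoters of 38 coding members were matched. Of these, 7 held the E-box (SLC25A13, SLC25A31, SLC25A33, SLC25A36, SLC25A38, SLC25A46 and SLC25A51), or 18.4%, beside 7.84% of 15843 coding promoters, and 7 held the GABP motif (SLC25A4, SLC25A17, SLC25A20, SLC25A24, SLC25A38, SLC25A46 and SLC25A47), beside 11.8%. The GC box was in 26 of the 38, beside 56.0% of all, the CCAAT box in 17, beside 34.5%, and the TATA box in 3, beside 9.23%. The member promoters had a median GC content of 65.6% beside 62.4%, which bears on GC-rich motifs, and the matches are descriptions only.

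Carriers of the malate-aspartate shuttle and of di- and tricarboxylates had a median of 0.10 against empty vector cells over 7 compared members and of 0.01 against wt cells. SLC25A11, the oxoglutarate carrier that takes malate into the matrix in exchange for 2-oxoglutarate, stood lowest in FBP1 cells against both controls among the members compared. This did not hold with median scaling, where SLC25A47 stood lower at -0.36 and -0.33. Nor did it hold against wt cells with the authors' processed values, where SLC25A28 stood at -0.40, SLC25A22 at -0.35 and SLC25A11 at -0.33. The signals of SLC25A11 were 222.7 in FBP1 cells, 313.4 in empty vector cells and 317.5 in wt cells. They made it 1.45-fold and 1.44-fold lower than in the controls, just short of 1.5-fold. The controls differed by 0.01, and with median scaling FBP1 cells stood at -0.31 and -0.22. SLC25A11 has 1 probe, and 947 of 12413 genes lay further below empty vector cells. The aspartate-glutamate carriers, the other arm of the shuttle, had smaller differences. SLC25A12 differed from empty vector and wt cells by 0.19 and -0.21, and SLC25A13 by 0.01 and 0.01. SLC25A10, which exchanges malate or succinate for phosphate, had signals of 483.0 in FBP1 cells, 414.7 in empty vector cells and 481.7 in wt cells and was 1.32-fold above empty vector cells. SLC25A1, the citrate carrier that supplies acetyl units for fatty acid synthesis, differed by 0.10 and 0.25. SLC25A22, a glutamate carrier, was highest in wt cells, with differences of -0.43 for FBP1 cells and -0.41 for empty vector cells, and -0.02 between these 2. With median scaling the differences from wt cells were -0.15 for FBP1 cells and -0.35 for empty vector cells, and FBP1 cells stood at 0.21 against empty vector cells.

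Carriers of adenine nucleotides and phosphate had medians of -0.02 and -0.15 against empty vector and wt cells over 6 members. SLC25A3, the phosphate carrier, and SLC25A5, an ADP/ATP carrier, lay slightly below both controls in FBP1 cells, but not with median scaling, where SLC25A3 stood at 0.06 and 0.10 and SLC25A5 at 0.14 and 0.17. The brightest SLC25A3 probe gave 4254.7 in FBP1 cells, 5188.9 in empty vector cells and 5448.7 in wt cells, with differences of -0.19 and -0.22, and the other 2 SLC25A3 probes were also below both controls. SLC25A5 gave 9244.3, 10659.7 and 11285.4 in the same order, with differences of -0.10 and -0.23. Both genes have pseudogene copies that a probe may read. SLC25A4, the ADP/ATP carrier of heart and muscle, stood at 0.06 and -0.08 by its brighter probe (signals of 1278.2 in FBP1 cells, 1320.0 in empty vector cells and 1535.7 in wt cells) and at -0.25 and -0.23 by its dimmer one (399.7, 498.9 and 508.6). The other calcium-sensing ATP-Mg carriers detected were SLC25A23 and SLC25A25. SLC25A23, with signals of 1504.3 in FBP1 cells, 1305.5 in empty vector cells and 1249.3 in wt cells, was 1.25-fold above empty vector cells and 1.38-fold above wt cells. SLC25A25 stood at -0.11 and -0.34 at its brightest probe, with signals of 439.0 in FBP1 cells, 507.2 in empty vector cells and 597.5 in wt cells; its second detected probe gave 109.5, 107.7 and 126.7 and stood at 0.22 and -0.37.

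Carriers of nucleotides, cofactors and glutathione had medians of 0.11 and 0.22 over 8 members, with 6 of 8 above empty vector cells and 5 above wt cells. Of all genes, 50.9% and 49.4% lay below 0 in these comparisons. Both counts include SLC25A51, whose probes disagreed. Apart from SLC25A51, the member farthest above empty vector cells was SLC25A16, which has been linked to coenzyme A import, at 0.39. SLC25A16 stood at 0.30 against wt cells, where SLC25A42 was higher. The second SLC25A16 probe stood at 0.44 and 0.43 with detection in FBP1 cells alone. SLC25A42, a carrier of coenzyme A, gave 286.4 in FBP1 cells, 287.2 in empty vector cells and 260.3 in wt cells, with differences of 0.14 and 0.36. Its second probe, detected in empty vector cells alone, gave 85.2, 99.5 and 85.1. SLC25A26 takes S-adenosylmethionine into mitochondria, and its 3 probes disagreed against empty vector cells. They stood at -0.12 (181.5 in FBP1 cells, 204.0 in empty vector cells and 180.2 in wt cells), at -0.18 (133.6, 151.0 and 134.3) and at 0.34 (121.9, 116.2 and 119.0). SLC25A39 and SLC25A40, the glutathione carriers, stood at -0.04 and 0.06 against empty vector cells and at -0.10 and 0.27 against wt cells. SLC25A36, a pyrimidine nucleotide carrier, stood at 0.18 and -0.01, and the peroxisomal carrier SLC25A17 at 0.09 and -0.16.

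Amino acid and carnitine carriers had medians of -0.07 and -0.11 over 5 members, none of them 1.5-fold apart. SLC25A29, a carrier of basic amino acids, was among the lowest members against empty vector cells at -0.47, with signals of 175.9 in FBP1 cells, 231.1 in empty vector cells and 196.6 in wt cells, but its second probe gave 177.9, 183.6 and 179.4 and stood at 0.08. SLC25A15, the ornithine carrier of the urea cycle, stood at -0.13 and -0.40, with signals of 273.4 in FBP1 cells, 315.9 in empty vector cells and 374.5 in wt cells, and its dimmer probe (117.3, 125.5 and 122.3) at -0.05 and -0.02. SLC25A20, the carnitine-acylcarnitine carrier of fatty acid oxidation, gave differences of -0.07 and -0.33 at its brighter probe, which were 0.16 and 0.01 with median scaling, and of -0.43 and -0.68 at the dimmer, a 1.60-fold lower level than in wt cells. SLC25A38, which supplies glycine for haem synthesis, differed by 0.05 and 0.06, and the branched-chain amino acid carrier SLC25A44 by 0.09 and 0.17.

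The mitoferrins, which bring iron into mitochondria for haem and iron-sulphur clusters, stood on opposite sides of the controls in FBP1 cells. SLC25A37 (mitoferrin-1) gave signals of 892.3 in FBP1 cells, 775.2 in empty vector cells and 657.6 in wt cells, and was 1.27-fold and 1.58-fold higher than in empty vector cells and wt cells. SLC25A28 (mitoferrin-2) gave 836.7, 1048.9 and 1276.1 in the same order, and was 1.18-fold and 1.39-fold lower. With median scaling SLC25A28 stood at -0.00 and -0.19 and SLC25A37 at 0.57 and 0.95, beside 0.21 and 0.29 for all genes. With the authors' processed values SLC25A37 stood at 0.56 against wt cells, short of 1.5-fold. Empty vector cells lay between the others for both genes, 1.25-fold above wt cells for SLC25A37 and 1.17-fold below it for SLC25A28. Each mitoferrin has 1 probe.

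**Figure D2:**
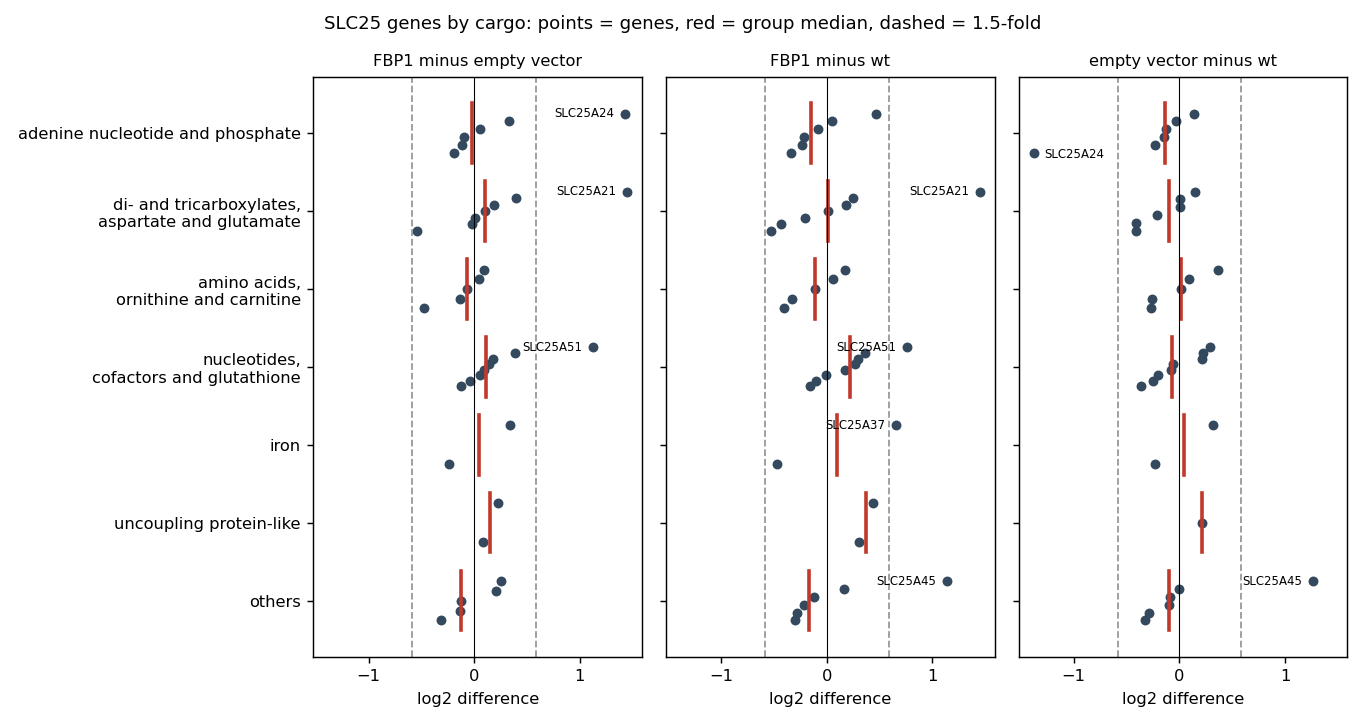
Log2 difference (x axis) of each compared SLC25 gene, by cargo group, for FBP1 minus empty vector (left), FBP1 minus wt (middle) and empty vector minus wt (right); points are genes at their brightest probe, red bars group medians and dashed lines 1.5-fold. The genes past 1.5-fold are named, and no group median reached that size.

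Of the other members, SLC25A27, a brain uncoupling protein, differed by 0.23 and 0.44 and was not detected in wt cells. SLC25A30, a relative of the uncoupling proteins, was detected in FBP1 cells alone but differed from empty vector cells by 0.08. SLC25A35 was detected in wt cells alone, at 104.1, against 93.2 in FBP1 cells and 96.0 in empty vector cells. SLC25A47, a carrier known from liver, was not detected in FBP1 cells at 85.2 and gave 99.4 in empty vector cells and 97.8 in wt cells. SLC25A46, an outer membrane protein of mitochondrial fission, differed by 0.21 and -0.12, and SLC25A43 by -0.12 and -0.22. Coding members detected on no array were SLC25A2, SLC25A18, SLC25A31, SLC25A32, SLC25A33, SLC25A34, SLC25A41, SLC25A48, SLC25A52 and SLC25A53. They include SLC25A31, the ADP/ATP carrier of testis, and SLC25A32, which carries folate or FAD.

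Genes read by more than 1 probe gave the only check of repeated readings. Of the members, 17 had more than 1 probe and 31 had 1. Against empty vector cells 17 pairs of detected probes of the same gene could be set side by side, in 13 genes, and 9 pairs lay on the same side of 0. The gap between probes had a median of 0.32, wider than the 0.15 and 0.16 against wt cells and between the controls, where 13 of 16 and 11 of 16 pairs lay on the same side. Gaps of at least 1.5-fold occurred for SLC25A51 in all 3 comparisons and for SLC25A24 in the 2 comparisons that use empty vector cells. The middle 50% of members lay closer to 0 against empty vector cells than this median gap of 0.32. The 3 genes farthest above empty vector cells comprised SLC25A51 and SLC25A24, whose probes disagreed, and SLC25A21 with a single probe.

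**Figure D3:**
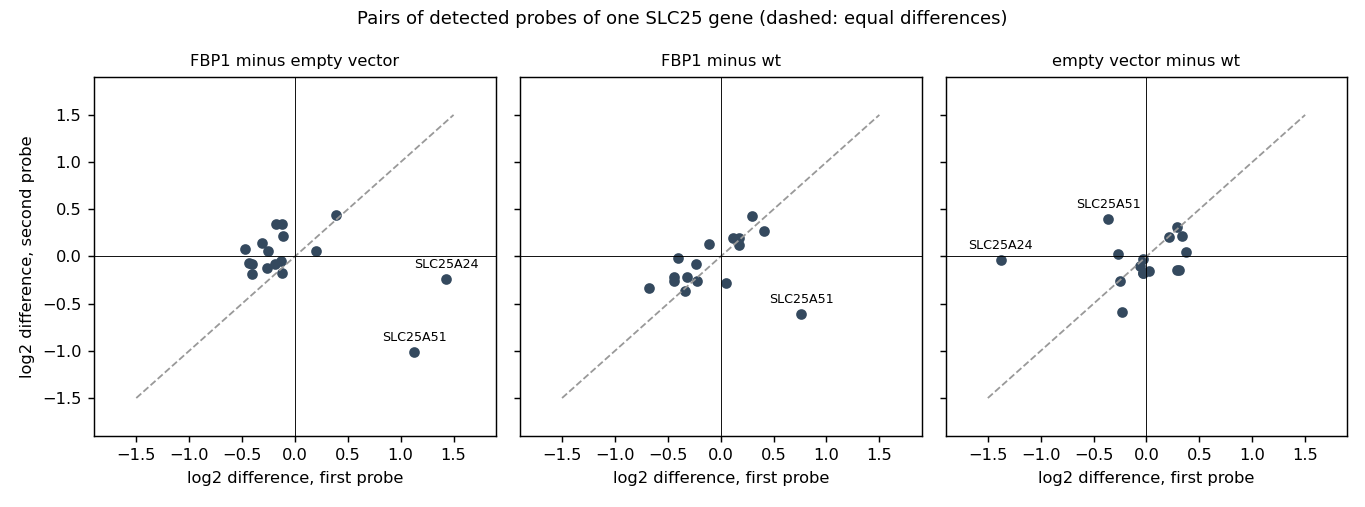
Log2 difference at one detected probe (x axis) against that at another detected probe of the same SLC25 gene (y axis), in the 3 comparisons; each point is a pair of probes and the dashed line marks equal differences. SLC25A51 lies far from the line in all 3 panels, and SLC25A24 in the left and right ones.

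Genes of mitochondrial transport outside the naming rule were read from lists of other inner membrane transport, outer membrane channels and carrier import. The first list also holds carnitine palmitoyltransferase genes, which encode enzymes and not carriers, and MTCH1 and MTCH2, which encode outer membrane proteins. Of 25 compared genes of that list, 2 (CPT1B and CPT2) were at least 1.5-fold higher in FBP1 cells than in empty vector cells. At least 1.5-fold lower were 3, and the shares of all genes were 6.76% higher and 6.05% lower. Against wt cells 4 were higher and 3 lower by that much, beside 8.96% and 8.00% of all genes. The medians were 0.06 and -0.05. UCP2, a member of the same protein family under another name that exports metabolites with 4 carbons, stood lowest. It gave signals of 170.2 in FBP1 cells, 281.8 in empty vector cells and 298.8 in wt cells and was 1.92-fold and 2.04-fold lower in FBP1 cells, while the controls differed by -0.09. The carnitine palmitoyltransferase genes CPT1B, of muscle, and CPT2, which feed long-chain fatty acids to oxidation, were 1.58-fold and 1.51-fold above empty vector cells and 2.10-fold and 1.60-fold above wt cells, whereas CPT1A stood at 0.24 and -0.15. The controls differed by 0.41 for CPT1B and 0.09 for CPT2. Among the sideroflexins, a second family of inner membrane carriers, the serine carrier SFXN1 stood at -0.36 and -0.74, SFXN2 at -0.60 and -0.77, SFXN3 at 0.41 and 0.71 and SFXN5 at 0.28 and 0.63. The controls differed by -0.38 for SFXN1, -0.17 for SFXN2, 0.30 for SFXN3 and 0.35 for SFXN5. With median scaling SFXN1 stood at -0.12 and -0.43 and SFXN2 at -0.38 and -0.41, all short of 1.5-fold. SFXN3 then stood at 0.64 and 1.09 and SFXN5 at 0.51 and 1.00, beside medians of 0.21 and 0.29 for all genes. With the authors' processed values, where differences were smaller, no gene of this list reached 1.5-fold against empty vector cells and UCP2, at -0.59, was the only one to do so against wt cells. The mitochondrial ABC transporter gene ABCB8, not detected in FBP1 cells, was at least 1.56-fold below empty vector cells. MPC1 and MPC2, which form the pyruvate carrier, stood at 0.29 and -0.08 against empty vector cells and at -0.09 and -0.03 against wt cells.

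The import genes lay mostly below the controls in FBP1 cells. Of 15 compared genes, 12 were below empty vector cells and 13 below wt cells, with medians of -0.20 and -0.27, beside 50.9% and 49.4% of all genes below 0; between the controls 10 of 15 were below 0 and the median was -0.11. TIMM10, a small TIM chaperone that guides carriers across the intermembrane space, stood lowest, with signals of 1123.8 in FBP1 cells, 1953.2 in empty vector cells and 2211.8 in wt cells, and was 1.64-fold and 1.81-fold lower than in these controls. With median scaling TIMM10 stood at -0.49 and -0.56, short of 1.5-fold. TIMM8A was 1.56-fold below wt cells, at -0.64, but differed by -0.08 from empty vector cells, and stood at -0.34 against wt cells with median scaling and at -0.45 with the authors' processed values. TIMM29, a subunit of the TIM22 complex, stood highest against empty vector cells at 0.06, and TIMM22, its pore, stood at 0.03 and -0.17. The outer membrane channels VDAC1, VDAC2 and VDAC3 stood between -0.06 and -0.25 against the controls. With median scaling, which moved the median of all genes to 0.21 and 0.29, the import medians were 0.05 and 0.03 and those of the channels 0.07 and 0.13, so both lists lay below all genes under each scaling but not always below 0.

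**Figure D4:**
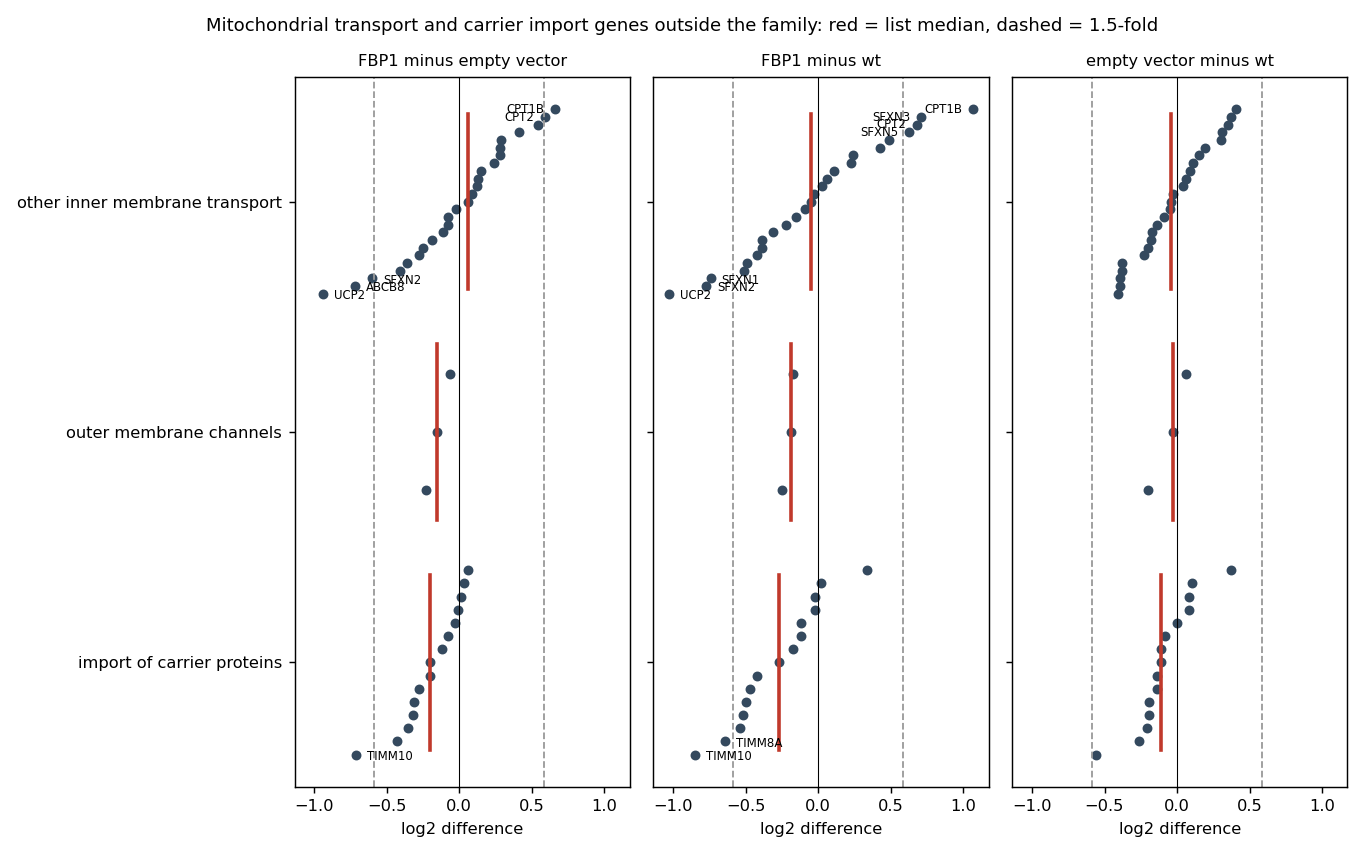
Log2 difference (x axis) of each compared gene of the lists outside the family, for FBP1 minus empty vector (left), FBP1 minus wt (middle) and empty vector minus wt (right); red bars are list medians and dashed lines 1.5-fold. Most import genes lie left of 0 in the left and middle panels, with TIMM10 lowest, and no listed gene passes 1.5-fold between the controls.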

How the data were processed

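Per the file headers, the authors deposited the signal of each probe as a linear intensity with its detection p-value; from its values, this table was neither background-subtracted nor normalised between arrays. They also deposited normalised intensities, by a method not given in the sources used here. Of 48107 probes, 48105 had all values. Intensities were corrected and quantile normalised with neqc (limma 3.58.1, R 4.3.3), with background taken from the detection p-values and an offset of 16. Probes took symbols from the platform annotation, updated by gene ID through RefSeq (GRCh38.p14); all 70 member probes matched. A gene was read from its probe with the highest mean level. The value on every array was given for members 1.5-fold apart in any comparison, for the 4 highest and 4 lowest against the empty vector, and for members whose probes disagree; of the lists outside the family, members 1.5-fold apart and each list's extremes were named. Members and lists were chosen with earlier results of these data known. Alternatives were no background correction, normexp on all probes with an offset of 50, median scaling, the authors' processed table, other detection filters, an offset of 50 and the mean of a gene's probes. The steps were tested on simulated arrays. Protein sequences were not used here, so the family's signature motif was not searched. Longer motifs of NRF1 and YY1 were also searched in the promoters and are not reported here. Python 3.11.15, numpy 2.4.6, pandas 2.3.3 and matplotlib 3.10.9 were used.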

Additional observations from a re-analysis of the deposited data

How the results depend on the processing

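No paired analysis was possible because each group has 1 array; for the same reason no replicate could be left out. Median scaling moved the median of all genes to 0.21 against the empty vector, 0.29 against wt and 0.08 between the controls, and the share of called genes that were upward from 52.8%, 52.8% and 54.4% to 83.0%, 90.6% and 75.1% (65.0%, 61.7% and 50.4% with the authors' processed values). The members' medians then became 0.29, 0.31 and 0.03, the last reversed in sign. Of 35 members, 5 were then at least 1.5-fold above the empty vector, beside 1936 of 12413 genes. Of 36 members, 9 were that far above wt, beside 3023 of 12404 genes. The number above wt was 2 with the authors' processed values and 2 where detection on both arrays was required. The single member higher between the controls, SLC25A45, was lost (0 members) with no background correction, with the authors' processed values and where detection on both arrays was required. The members above both controls numbered 1 where detection on both arrays was required, which drops SLC25A21, and 1 with the mean of a gene's probes, where SLC25A51 no longer reached 1.5-fold. Read from its brightest probe or probe mean, no member was at least 1.5-fold below either control on the FBP1 array in the 9 alternatives. In the main setting, dimmer probes did pass that size, for SLC25A51 at -1.01 and -0.61 and for SLC25A20 at -0.68 against wt. Over all genes, 839 higher and 751 lower against the empty vector became 1936 and 397 under median scaling, and 265 and 143 for the authors' processed values; 1111 and 992 against wt became 416 and 258 for the latter, and 493 and 414 between the controls became 66 and 65.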
